A study of Mus musculus with 2 samples.

Results

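The genes of 9 tricarboxylic acid cycle enzymes and close relatives, Cs, Idh2, Idh3a, Ogdh, Suclg1, Suclg2, Fh1, Mdh1 and Mdh2, were followed in control and senescent AML12 cells. They were listed by gene symbol, with earlier results of these data known, and all 9 were found among the 35275 genes of the count table. RNAseq compared untreated AML12, a line of mouse hepatocytes, with the same line driven into premature senescence by hydrogen peroxide. The line comes from the liver of a 3 month old male CD-1 mouse that carried a human TGF-alpha transgene, which both groups therefore share. The senescent cells were exposed to peroxide on each of 6 days for 1 h, first at 1 mM and later at 0.75 mM, and recovered for 23 h after each exposure in medium with serum and dexamethasone. RNA of 3 samples was pooled into 1 library per condition, so every ratio compares 2 libraries, has no replicate check and carries no p-value. In such bulk RNA, fewer cells of a type and less RNA per cell cannot be told apart.

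The tricarboxylic acid cycle runs in the mitochondrial matrix, where it oxidizes the acetyl group of acetyl-CoA to carbon dioxide and passes the electrons to the respiratory chain as NADH and reduced flavin. Citrate synthase, the NAD-dependent isocitrate dehydrogenase and the oxoglutarate dehydrogenase complex catalyze its effectively irreversible steps. Glutamine carbon enters at oxoglutarate and propionate carbon at succinyl-CoA, and hepatocytes also draw on the cycle for gluconeogenesis, lipid synthesis and the urea cycle. The cycle is of interest here because the study measured how these cells oxidized glucose, fatty acids and glutamine. Only mRNA was measured in the data described here, not enzyme activity or flux.

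The promoters of 4 of the genes are shown because their mRNAs cover the range of ratios below: Cs had the highest ratio, Suclg2 and Idh2 the lowest pair, and Mdh2 the ratio nearest to 0. Each line holds the 250 bases before the transcription start, 5′ to 3′ on the gene's strand, from RefSeq on GRCm38.p6. The gene positions given below are from GENCODE, whose starts can differ. By those positions the windows of Mdh2 and Idh2 reach into the gene, which starts at 135778480 for Mdh2 and at 80115392 for Idh2. Capitals mark the letters CCAAT read on the strand shown, or ATTGG where the match lies on the opposite strand. The Cs window is chr10:128337477-128337726 on the plus strand, that of Idh2 chr7:80115351-80115600 on the minus strand, that of Suclg2 chr6:95718847-95719096 on the minus strand and that of Mdh2 chr5:135778399-135778648 on the plus strand.
Cs: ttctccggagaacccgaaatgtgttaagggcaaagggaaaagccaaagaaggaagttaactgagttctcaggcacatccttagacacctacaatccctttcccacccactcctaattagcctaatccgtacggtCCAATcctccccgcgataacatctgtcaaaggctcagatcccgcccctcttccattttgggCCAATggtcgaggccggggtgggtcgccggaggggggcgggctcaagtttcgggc
Idh2: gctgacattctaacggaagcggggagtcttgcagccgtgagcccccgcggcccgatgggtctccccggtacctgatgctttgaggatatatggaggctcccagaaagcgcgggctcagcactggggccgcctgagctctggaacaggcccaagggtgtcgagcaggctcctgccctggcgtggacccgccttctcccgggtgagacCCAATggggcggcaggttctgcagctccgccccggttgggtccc
Suclg2: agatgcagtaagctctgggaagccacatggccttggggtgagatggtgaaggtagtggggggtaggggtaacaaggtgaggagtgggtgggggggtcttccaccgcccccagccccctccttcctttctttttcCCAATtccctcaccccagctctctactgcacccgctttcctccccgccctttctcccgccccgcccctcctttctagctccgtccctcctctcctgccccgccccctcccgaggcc
Mdh2: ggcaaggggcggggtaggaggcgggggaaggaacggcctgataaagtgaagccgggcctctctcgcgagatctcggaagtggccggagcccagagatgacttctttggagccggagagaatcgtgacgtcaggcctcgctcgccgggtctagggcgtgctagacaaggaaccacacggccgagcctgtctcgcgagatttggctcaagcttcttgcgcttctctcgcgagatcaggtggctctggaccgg

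Promoter windows were matched for 8 of the 9 genes, all but Idh3a, and upstream refers to their RefSeq starts. The window of Mdh1 and some of those of Ogdh lie inside the gene by its GENCODE position. CCAAT, the box bound by the factor NF-Y, was found on either strand upstream of Cs, Idh2, Ogdh, Suclg2, Fh1 and Mdh1, 6 of the 8 genes, and upstream of 37.5% of 27025 genes with a window of the same length. It was held both by Cs, with a higher ratio, and by Idh2, Suclg2 and Mdh1, with lower ones. GCATGCGC (NRF1) and CACGTG (the E-box, which reads the same on both strands) were each found only upstream of Ogdh among these genes, which has 6 listed windows, and upstream of 2.56% and 6.86% of all genes. CCGGAAGT (ETS factors such as GABPA) and TCAAGGTCA (estrogen-related receptors) were in none of the 8 genes' windows and in 3.23% and 0.422% of genes. The 250 bases upstream held 67.2% G and C in Idh2, 64.4% in Suclg2, 63.2% in Mdh2 and 55.2% in Cs, beside a median of 52.4% over all windows. These matches describe letters in the windows and were not tested against the ratios.

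The control library held 28021941 counted reads and the senescent library 25738075. Of the 10 hepatocyte markers examined, Alb, Ttr, Apob, Hnf4a, Krt8 and Krt18 had at least 2917 reads in each library, while Trf (26 control and 17 senescent reads), Cps1 (19 and 55) and Cyp2e1 (0 and 50) were near absent. Alb itself had 32076 and 2917 reads, a log2 ratio of -3.23, and Apoa1 had 2026 and 197 (-3.13). The summed CPM (counts per 1000000 reads, after scaling) of the marker lists were 0.722 and 0.363 for fibroblasts and stellate cells, 2.61 and 6.29 for macrophages and 0.447 and 1.45 for endothelium, with Col1a2, Adgre1 and Clec4f at 0 in both libraries. At low counts, Ptprc had 27 and 76 reads (log2 ratio 1.68), Csf1r 15 and 40 (1.58), Cd68 34 and 40 (0.45), Vwf 8 and 24 (1.69) and Col1a1 21 and 1 (-3.29). The cholangiocyte list stood at 1897 and 1421, with at least 3602 reads of Krt19, Spp1 and Sox9 in each library and almost none of Epcam (0 and 1). Of this list Krt7 (3248 and 1026 reads, log2 ratio -1.43) and Spp1 (25430 and 10580, -1.04) were lower. Krt19 stood at -0.03 and Sox9 at 0.54. Among markers of the labelled state, Cdkn1a had 6182 control and 9869 senescent reads (log2 ratio 0.90), and Cdkn2a, which encodes p16 among its products, had 437 and 149 (-1.32). The Cdkn2a count does not separate its 2 annotated transcripts. By RT-qPCR the study reported higher mRNA of both genes in its senescent cells, under the names CDKN2A/p21 and CDKN1A/p16. These names pair p16 with the other symbol than here, so which gene each assay measured is not certain. The Cdkn2a count ran opposite to the report under the symbol CDKN2A. Lmnb1 had 2249 and 1556 (-0.30), and the proliferation markers went opposite ways, with 3322 and 1635 reads of Mki67 (-0.79) and 3576 and 3452 of Top2a (0.18). The part of these differences in the ratios below was not tested.

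None of the 9 genes passed the study's threshold of 1.5 on the log2 scale in either direction. The log2 ratio of senescent over control was taken from counts scaled by edgeR's TMM method, with a prior count of 1. Its 95% Clopper-Pearson interval covers counting error only, since 1 library per condition gives no spread between cultures. The interval may be too narrow even for that, because reads copied by PCR and lacking molecular identifiers do not each stand for a separate molecule. Of 14383 genes with at least 10 reads, 2.71% were higher and 5.6% lower past 1.5 with an interval without 0. At 0.5 in place of 1.5, Cs was higher (1 of 9, just inside at 0.504) and Idh2, Suclg2 and Mdh1 were lower (3 of 9), beside 14.8% and 20.4% of all genes. Of these only Suclg2 stayed past 0.5 under every alternative: Cs stood at 0.498 with DESeq2 size factors and 0.40 with total counts, and Idh2 and Mdh1 at -0.44 each once a trend on transcript length was removed, an alternative chosen after seeing the data. With no threshold, 4 of the 9 intervals lay above 0 and 5 below, beside 34.0% and 34.6% of all genes. Because these genes are deeply read, with 5463 to 15042 reads each over both libraries, an interval without 0 is a weak criterion for them: among 7804 genes with at least 1000 reads, 3786 lay above and 2666 below.

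The median log2 ratio of the 9 genes was -0.24, beside -0.02 over all 14383 genes and 0.08 over the 7804 deeply read ones. Their ratios ran from -0.65 (Suclg2) to 0.50 (Cs), an interval that held 63.4% of all genes and 74.9% of the deeply read ones. The summed reads of the 9 genes numbered 47059 for control and 37071 for senescent cells, which is 1618 and 1495 CPM, or 0.924 times the control. The sum thus differed less than most of its parts, which lay on both sides of 0.

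**Figure D1:**
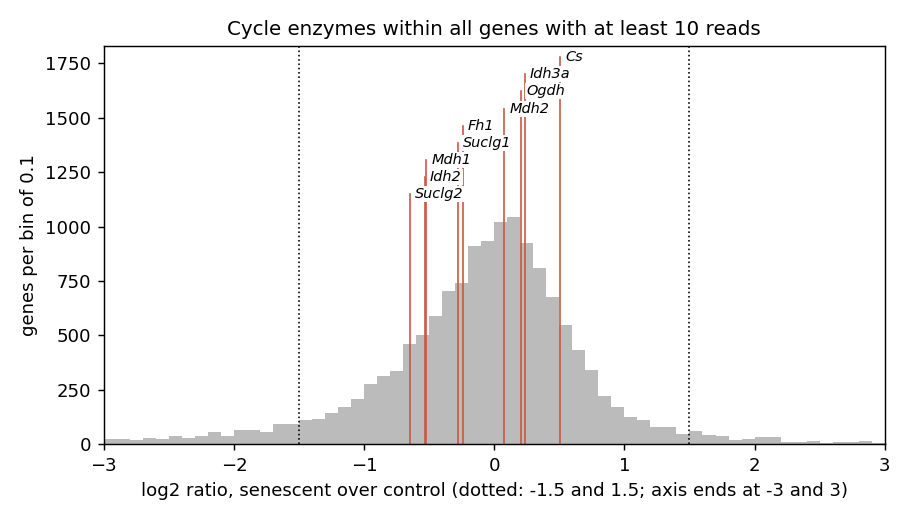
Histogram of log2 ratios, senescent over control, for 14383 genes with at least 10 reads, in bins of 0.1 and drawn from -3 to 3, with a red line at each of the 9 cycle genes and dotted lines at the threshold of 1.5 in both directions. The 9 genes lie between -0.65 and 0.50, inside the body of the distribution.

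The cycle opens with citrate synthase, which joins acetyl-CoA to oxaloacetate. Cs (ENSMUSG00000005683, chromosome 10 from 128337734 to 128362479 of GRCm38, plus strand) had 5317 control and 6430 senescent reads, or 183 and 259 CPM. It was thus the gene of the 9 that stood highest against its control, with a log2 ratio of 0.50 (0.45 to 0.56), above 82.4% of all genes. There were 0.704 Cs reads per Idh2 read in control and 1.44 in senescent cells, a difference between the genes of 1.04 on the log2 scale (0.96 to 1.11), which no choice of library scaling can change. This pair was added after its values were seen.

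Isocitrate is oxidized by different enzymes. The NAD-dependent one is a complex of the subunits encoded by Idh3a, which is catalytic, and Idh3b and Idh3g. Idh3a (ENSMUSG00000032279, chromosome 9 from 54586334 to 54604661, plus strand) had 2728 control and 2735 senescent reads, or 93.8 and 110 CPM, a log2 ratio of 0.23 (0.16 to 0.31), or 0.13 with total counts. Idh3b, with 3156 and 2611 reads, stood at -0.04 (-0.12 to 0.03), and Idh3g, with 2953 and 1992, at -0.34 (-0.42 to -0.26), so the subunit genes of this enzyme spread to both sides of 0. The difference between Idh3a and Idh3g was 0.57 (0.46 to 0.68) and that between Idh3a and Idh3b was 0.28 (0.17 to 0.39), both chosen after their values were seen. Idh2 encodes the NADP-dependent enzyme of the matrix, a source of mitochondrial NADPH, and lies apart from the classical cycle. Idh2 (ENSMUSG00000030541, chromosome 7 from 80094846 to 80115392, minus strand) had 7553 and 4450 reads, or 260 and 179 CPM, a log2 ratio of -0.53 (-0.59 to -0.48). Its cytosolic counterpart Idh1 had 4883 and 3047 reads and a ratio of -0.45 (-0.52 to -0.39). The change of Idh1 less that of Idh2 was 0.08, with an interval from -0.0022 to 0.17 that held 0. Idh2 and Idh3a differed by more: there were 2.77 Idh2 reads per Idh3a read in control and 1.63 in senescent cells, a difference of -0.77 on the log2 scale (-0.86 to -0.67).

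The oxoglutarate dehydrogenase complex, through which glutamine carbon must pass to go around the cycle, consists of E1 (Ogdh), E2 (Dlst) and E3 (Dld). Ogdh (ENSMUSG00000020456, chromosome 11 from 6291633 to 6356642, plus strand) had 4331 control and 4259 senescent reads, or 149 and 172 CPM, a log2 ratio of 0.21 (0.14 to 0.27), or 0.098 with total counts. Dlst had 2798 and 3035 reads (0.35, interval 0.27 to 0.42), and Dld, which the pyruvate dehydrogenase complex shares, had 3188 and 2739 (0.01, interval -0.06 to 0.08). None of these 3 genes had an interval below 0, beside 34.6% of all genes. The ratio of Ogdh less that of Dlst was -0.14 (-0.24 to -0.04). Ogdhl, a close relative of Ogdh, was read much less, with 512 and 556 reads (0.35, interval 0.17 to 0.52). Mrps36, which helps to bind E3 to the complex, had 654 and 446 reads (-0.32, interval -0.50 to -0.15).

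Succinyl-CoA ligase turns succinyl-CoA into succinate and makes GTP or ATP. Its alpha subunit, from Suclg1, pairs with a beta subunit from Suclg2 in the GTP form or from Sucla2 in the ATP form. Suclg2 (ENSMUSG00000061838, chromosome 6 from 95473009 to 95718800, minus strand) had 4738 control and 2579 senescent reads, or 163 and 104 CPM. Its log2 ratio of -0.65 (-0.72 to -0.58) was the lowest of the 9, with 19.0% of all genes and 8.96% of the deeply read genes below it. Suclg1 (ENSMUSG00000052738, chromosome 6 from 73248382 to 73276911, plus strand) had 4491 and 3155 reads, or 154 and 127 CPM, a log2 ratio of -0.28 (-0.35 to -0.21). Sucla2 had 2414 and 1883 reads (-0.13, interval -0.22 to -0.04). All 3 genes of the ligase were thus lower with intervals below 0, by unequal amounts. The same held for 34.6% of all genes and for 2666 of the 7804 deeply read ones. With an assumed coefficient of variation between cultures of 0.1, the interval of Suclg1 held 0 (-0.69 to 0.13). Per kilobase of merged exons, Suclg2 stood at 1.69 times Sucla2 in control and 1.18 times in senescent cells, a difference of -0.52 on the log2 scale (-0.63 to -0.41). Per kilobase of the longest transcript, the levels of Suclg2 and Sucla2 were 48.4 and 37.2 in control and 30.9 and 34.1 in senescent cells. Their order in senescent cells thus depends on the length used, while the difference on the log2 scale does not. The log2 ratio of Suclg2 less that of Suclg1 was -0.37 (-0.46 to -0.27).

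Succinate dehydrogenase, which is also complex II of the respiratory chain, showed no common direction among its subunit genes. Sdhb, the iron-sulfur subunit, had 1976 and 2091 reads (0.31, interval 0.22 to 0.40). Sdha, the flavin subunit, had 6992 and 5290 (-0.17, interval -0.22 to -0.12), and the membrane anchor gene Sdhc had 4101 and 2768 (-0.34, interval -0.41 to -0.27). The other anchor gene, Sdhd, stood at -0.02 (-0.09 to 0.04).

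Fumarate hydratase adds water to fumarate. Fh1 (ENSMUSG00000026526, chromosome 1 from 175600374 to 175625635, minus strand) had 3252 control and 2346 senescent reads, or 112 and 94.6 CPM, a log2 ratio of -0.24 (-0.32 to -0.16). Its ratio was the median of the 9.

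Malate dehydrogenase closes the cycle in the matrix (Mdh2), while the enzyme from Mdh1 works in the cytosol, where it serves the malate-aspartate shuttle. Mdh2 (ENSMUSG00000019179, chromosome 5 from 135778480 to 135790398, plus strand) had 7920 and 7122 reads, or 272 and 287 CPM. Its log2 ratio of 0.08 (0.03 to 0.12) was -0.031 when libraries were scaled by total counts, so no direction can be given for it. Mdh1 (ENSMUSG00000020321, chromosome 11 from 21556787 to 21572367, minus strand) had 6729 and 3995 reads, or 231 and 161 CPM, a log2 ratio of -0.52 (-0.58 to -0.47). There were 0.850 Mdh1 reads per Mdh2 read in control and 0.561 in senescent cells, a difference of -0.60 on the log2 scale (-0.67 to -0.53). Of the other shuttle genes examined, only Got1, the cytosolic aminotransferase, was higher, at 0.38 (0.30 to 0.45). Got2, its mitochondrial partner, stood at -0.23 (-0.29 to -0.17). The carrier genes were lower too: Slc25a11 at -0.22 (-0.30 to -0.13), Slc25a12 at -0.49 (-0.63 to -0.35) and Slc25a13 at -0.62 (-0.73 to -0.50).

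**Figure D2:**
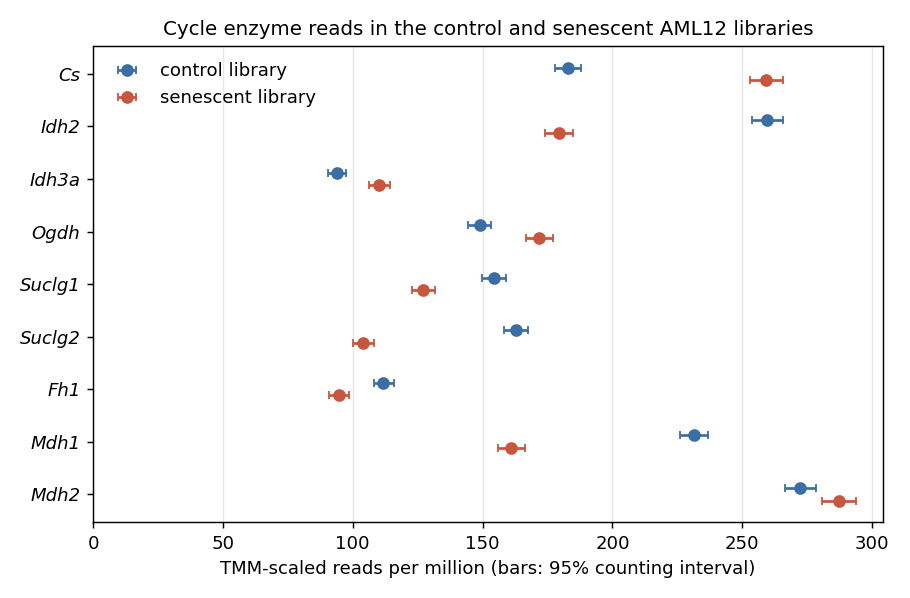
TMM-scaled CPM of the 9 cycle genes in the control (blue) and senescent (red) library, 1 library each, with 95% Poisson intervals for counting error. Idh2 (260 and 179) and Mdh1 (231 and 161) lie lower in the senescent library, Cs (183 and 259) higher, and Mdh2 (272 and 287) close together.

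**Figure D3:**
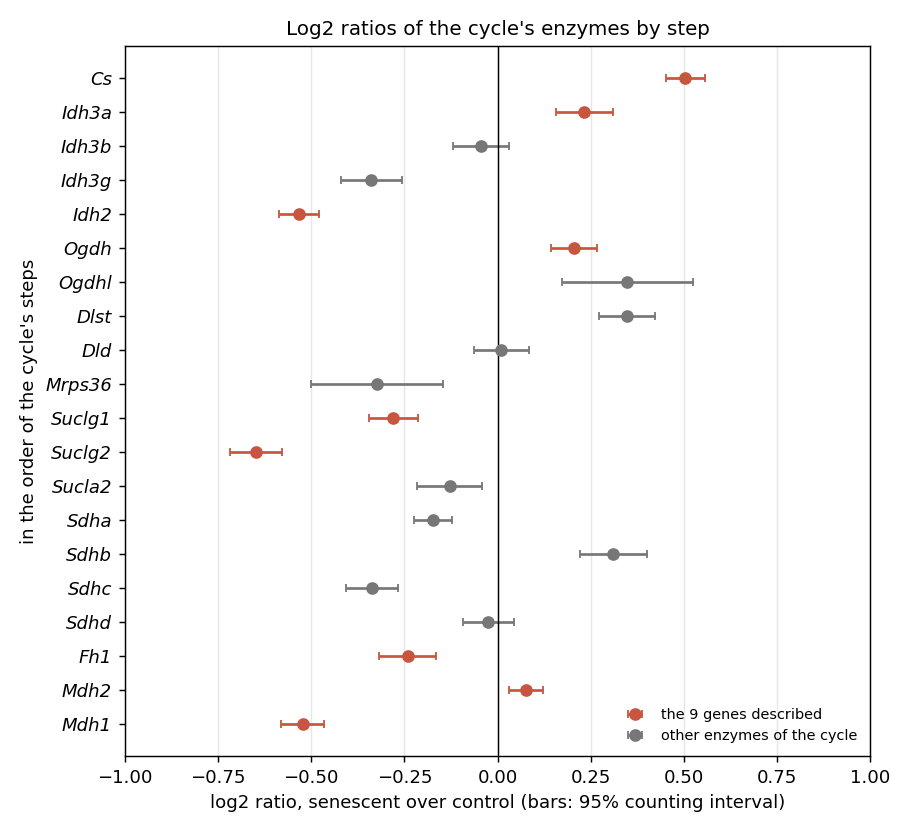
Log2 ratios of senescent over control for 20 genes of the cycle in the order of its steps, the 9 genes described in red and 11 other enzyme genes in gray, with 95% counting intervals. The red points run from -0.65 (Suclg2) to 0.50 (Cs), and the gray ones from -0.34 to 0.35.

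Across the 20 genes of the cycle examined the median was -0.09. Of their intervals 7 lay above 0 and 10 below, beside 34.0% and 34.6% of all genes. The 20 genes had at least 1068 reads each over both libraries, and of the 7804 deeply read genes 3786 lay above and 2666 below. None of the 20 was past 1 in either direction. Of all 14383 genes, 732 were higher and 1435 lower past 1, and of the 7804 deeply read ones 232 and 324. The 11 genes outside the 9 had a median of -0.04 and reached at most 0.35. The most extreme ratios at both ends were thus among the 9, which were chosen with earlier results of these data known.

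Levels of different genes were compared per kilobase of merged exons. In the control library Idh2 had the highest level, 100.4 RPKM (CPM per kilobase), followed by Mdh1 (90.1) and Mdh2 (76.5). Suclg2 (35.2), Suclg1 (33.4), Fh1 (33.0) and Cs (31.6) came next, each overlapping its neighbor within counting error, and Ogdh (27.3) and Idh3a (18.5) had the lowest levels. In the senescent library Mdh2 was first at 80.6, ahead of Idh2 (69.3) and Mdh1 (62.8), and Cs came next at 44.9. Ogdh (31.5), Fh1 (27.9) and Suclg1 (27.6) followed, with Suclg2 (22.5) and Idh3a (21.7) lowest, and neither Fh1 and Suclg1 nor Suclg2 and Idh3a differed beyond counting error. As a share of the summed level of the 9 genes, Cs went from 7.09% to 11.5%, Mdh2 from 17.1% to 20.7%, Idh2 from 22.5% to 17.8%, Mdh1 from 20.2% to 16.1% and Suclg2 from 7.90% to 5.79%. The order depends on the length used: per kilobase of the longest transcript, Mdh2 was first in both libraries (169.6 in the control, where Idh2 had 145.1), and the control level of Cs was 60.9 in place of 31.6.

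**Figure D4:**
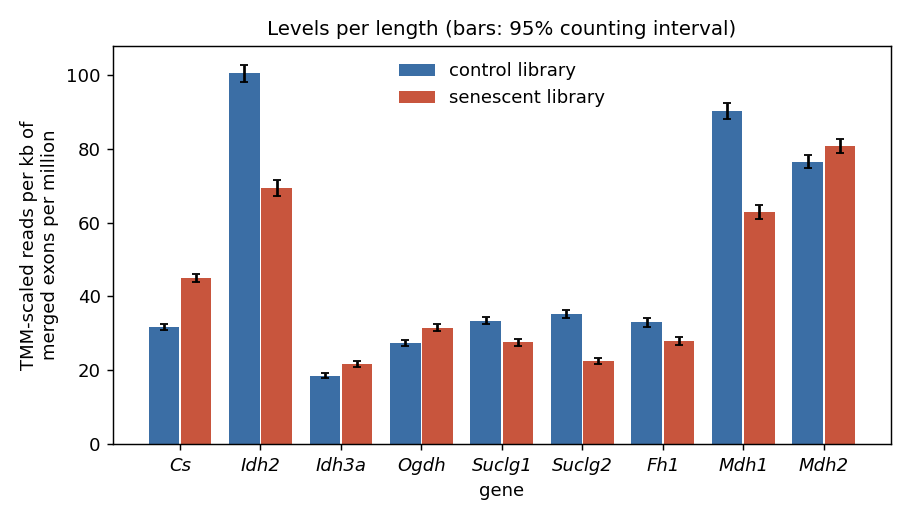
Levels of the 9 cycle genes, as RPKM (TMM-scaled CPM per kilobase of merged exons), in the control (blue) and senescent (red) library, with 95% Poisson intervals. Idh2, Mdh1 and Mdh2 stand above 60 in both libraries and the other 6 genes below 45.

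Of 12 genes for the entry of pyruvate and its control, 2 were lower past 1.5 and 0 higher, beside 5.6% and 2.71% of all genes, with a median log2 ratio of -0.49. The genes of the pyruvate dehydrogenase kinases, which switch that complex off, were Pdk1 with 1628 control and 162 senescent reads (-3.09, interval -3.34 to -2.87), Pdk4 with 217 and 27 (-2.74, interval -3.41 to -2.20), Pdk3 with 252 and 76 (-1.49, interval -1.89 to -1.12) and Pdk2 with 650 and 334 (-0.73). Of the genes of the complex itself, Pdhx stood at -0.26 (-0.37 to -0.14), Pdhb at -0.19 (-0.27 to -0.10) and Pdha1 at -0.08 (-0.13 to -0.03). Their intervals lay below 0, beside 34.6% of all genes, while Dlat stood at -0.01 (-0.09 to 0.06). Mpc1 and Mpc2, which form the mitochondrial pyruvate carrier, had log2 ratios of -1.08 (1331 and 536 reads) and -0.85 (1690 and 801 reads), and the highest of the list was the phosphatase gene Pdp1 at 0.49.

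Of 14 genes examined that add carbon to the cycle or withdraw it, 13 had at least 10 reads. Their median was -0.78, and 10 intervals lay below 0 and 1 above, beside 34.6% and 34.0% of all genes. The 4 genes that carry propionyl-CoA to succinyl-CoA were all lower by similar amounts: Pcca had 1357 and 546 reads (-1.08), Pccb 1619 and 670 (-1.04), Mcee 753 and 296 (-1.12) and Mut 2348 and 1043 (-0.94). Succinyl-CoA is the substrate of succinyl-CoA ligase, whose genes stood at -0.65 (Suclg2), -0.28 (Suclg1) and -0.13 (Sucla2). The oxoglutarate dehydrogenase complex also makes succinyl-CoA, with Ogdh at 0.21, Dlst at 0.35 and Dld at 0.01. A link between these ratios was not tested. The list's lowest gene was Gls2, a glutaminase, at -1.80, and its highest Pck2, the mitochondrial phosphoenolpyruvate carboxykinase, with 2678 and 3227 reads (0.50, interval 0.42 to 0.57).

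The 10 cytosolic counterparts and carriers had a median of -0.22, from Slc25a13 at -0.62 to the cytosolic malic enzyme Me1, with 8712 and 10608 reads, at 0.51. Of 8 genes for lipoylation, succinate dehydrogenase assembly and transhydrogenase, 4 intervals lay below 0 and 1 above, beside 34.6% and 34.0% of all genes, and they ran from Sdhaf4 (-0.91) to Sdhaf2 (0.21). Among 10 genes that regulate mitochondrial genes or enzymes, Pprc1 (2821 and 4861 reads, log2 ratio 1.01) and Myc (2239 and 4382, 1.20) were higher and Ppargc1a, which encodes the coactivator PGC-1 alpha, was lower at a low count (105 and 16 reads, -2.42, interval -3.34 to -1.72). Esrra stood at 0.21, Nrf1 at 0.60 and the deacetylase gene Sirt3, with 443 and 244 reads, at -0.63.

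Of the 9 genes, Cs and Suclg2 had near-identical sequence elsewhere. Transcripts of Cs aligned to Csl over 1522 bases at 91.9% identity, and Csl was listed at 0 reads in both libraries; Gm48254, aligned over 469 bases at 92.1%, was not analysed here. Suclg2 aligned to the processed pseudogene Gm15163 over 1302 bases at 98.9% identity, and Gm15163 had 8 reads in each library beside 4738 and 2579 of Suclg2. The count table does not show which strand was counted, and Mdh1 overlaps Wdpcp on the other strand (116 and 28 reads) and Fh1 overlaps Kmo (0 and 4 reads), so reads of these pairs cannot be told apart where they overlap. With an assumed variation between cultures of 0.1 (coefficient of variation), intervals without 0 were left for Cs (0.10 to 0.91), Idh2 (-0.94 to -0.13), Suclg2 (-1.05 to -0.24) and Mdh1 (-0.93 to -0.12), and at 0.4 for none of the 9.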

How the data were processed

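RNAseq was performed on poly(A) RNA primed with random hexamers, 1 library per condition from 3 pooled samples. The authors deposited raw counts of reads per Ensembl gene; the submitters' notes list CASAVA, STAR, DESeq2 and edgeR with the build mm10, and the annotation, counting tool and strand setting are not given in the sources used here. Columns were assigned by the initials of the sample titles. Symbols, positions and lengths came from GENCODE M21 on GRCm38, which paired 34490 of 35275 identifiers (97.8%).

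Counts were scaled with TMM in edgeR 4.0.16 (R 4.3.3), and for alternatives by DESeq2 1.42.0 size factors, upper quartiles or total counts. Log2 ratios took a prior count of 1, and a gene was counted as changed with at least 10 reads, a ratio past 1.5 and a 95% interval without 0. Differences between 2 genes carry the exact conditional interval of the odds ratio of their 4 counts. Calculations used Python 3.11.15, numpy 2.4.6, pandas 2.3.3, scipy 1.17.1, statsmodels 0.14.6 and matplotlib 3.10.9, and shared sequence (at least 300 bases at 90% identity) blastn 2.17.0. The ratios and intervals of single genes were tested on simulated counts with known library sizes, Poisson or with added variation between cultures. TMM scaling and the intervals for differences between 2 genes were not part of that test. With 1 library per condition, the tests of edgeR and DESeq2 could not be used. Members, lists, role pairs and motifs were chosen with earlier results of these data known. Named genes are all cycle enzymes, genes of a role pair, and, of the other lists, the highest, the lowest and those past 1 with at least 100 reads. A few of their partners (Mpc2, Pdk2, Pdha1, Pdhb, Pdhx, Dlat, Mut, Got1, Got2, Slc25a11, Slc25a12, Esrra, Nrf1 and Sirt3) were chosen after their values were seen. Some genes of these lists are not reported here and were left out of their counts and medians.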

Additional observations from a re-analysis of the deposited data

How the results depend on the processing

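No paired analysis was possible because each condition has 1 library, and no replicate could be left out. DESeq2 size factors, upper-quartile scaling and a smaller prior count or one of 5 left all 9 ratios within their counting intervals, but with upper quartiles, as with total counts, 3 intervals in place of 4 lay above 0. Total-count scaling moved the median of all genes by -0.11, that of the 9 genes to -0.35, turned Mdh2 to -0.031, and moved the other 8 genes outside their counting intervals with their direction kept, Ogdh to 0.098 and Idh3a to 0.13, while the 9 genes' median less that of all genes was -0.23 under both. A threshold of 0.5 counted 1 higher and 3 lower genes of the 9, and thresholds of 1 and 1.5 counted 0. With an assumed coefficient of variation of 0.1, 1 interval lay above 0 and 3 below, and with 0.4, 0 and 0. Filters of at least 1 or 100 reads changed nothing for the 9 genes. Trends on GC content and on transcript length, alternatives chosen after seeing the data, left all 9 directions in place. Removing the trend on length brought Idh2 to -0.44 and Mdh1 to -0.44, and Mdh2 to 0.18, each outside its counting interval, so that Idh2 and Mdh1 were no longer past 0.5.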
